A study of Mus musculus with 6 samples.

Results

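The integrin, laminin and fibronectin genes were followed in mouse femurs. They were chosen by symbol: every integrin alpha chain (Itga), the integrin beta chains Itgb1 to Itgb8, every laminin chain (Lama, Lamb, Lamc), fibronectin (Fn1) and vitronectin (Vtn). This gave 39 genes among the 22824 rows of each file, namely 18 alpha chains, 8 beta chains, 11 laminin chains, Fn1 and Vtn, and none of the 39 was listed at 0 in any library. Of the 39, 25 reached 1 FPKM in at least 3 libraries and were tested, and the others are given by their values alone. FPKM is a fragment count scaled to transcript length and to the mapped fragments of the library, so levels of different genes can be set side by side.

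The 6 paired-end RNA libraries came from femurs of C57BL/6 mice that the labels call free of cartilage and marrow cells. The 3 OE libraries came from mice with 9.6kb DMP1-Cre and R26-Wnt7b, all homozygous per the labels, in which the Dmp1 sequence drives Cre in osteocytes and mature osteoblasts. The 3 Ctrl libraries came from littermates with R26-Wnt7b and no Cre, so both groups carried the Wnt7b allele. The sources used here give neither age nor sex. Nothing in the labels ties a library to a separate animal, so p-values measure the spread between these libraries, which may be technical.

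The libraries did not follow their labels in every respect. Wnt7b, the targeted gene, measured 2.49, 0.661 and 0.295 FPKM across OE 1 to 3, 0.00833 in Ctrl 2, 0 in Ctrl 3 and 0.909 in the library labelled Ctrl 1, so the library labelled Ctrl 1 lay within the OE range. Marrow RNA was present throughout, with 6 of 6 neutrophil markers detected in every library and a sum of 35695 to 98200 FPKM in OE and 63195 to 84462 in Ctrl. The 5 osteoblast markers summed to 2339 to 3766 FPKM across OE, to 186 and 157 for Ctrl 2 and 3, and to 3078 for the library labelled Ctrl 1. Cartilage markers, 4 in number, summed to between 173 and 347 FPKM in OE and between 14.7 and 243 in Ctrl. OE 3 held the most erythroid, megakaryocyte and B-cell marker RNA, with 5194 FPKM over 5 erythroid markers. Relative depth, read from the steps between low FPKM values, was 1 to 1.18. In whole bone, fewer cells of a type and less RNA per cell cannot be told apart.

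Integrins are cell surface receptors made of an alpha and a beta chain, and the pairing decides what a cell can hold on to. Leukocyte integrins built on the beta2 chain bind other cells through ICAM proteins, the platelet integrin of Itga2b and Itgb3 binds fibrinogen, and integrins built on Itgb1 or Itgav bind collagen, laminin, fibronectin and vitronectin in the matrix. Talin and kindlin proteins switch integrins on from inside the cell. Laminins are trimers of an alpha, a beta and a gamma chain and build the basement membranes around vessels, muscle fibres and nerves. In bone, osteoblasts and osteocytes use matrix-binding integrins, osteoclasts attach to the bone surface through Itgav with Itgb3, and marrow cells use the leukocyte set.

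Start regions of 4 genes are shown as examples of both integrin sets described next: Itgam and Itga2b from the blood-cell set, and Itga10 and Itgav from the skeletal set. Each is a RefSeq window of 300 bases on GRCm38.p6 that runs from before to just past the annotated start, and windows of 24 of the 39 genes were matched by symbol. Capitals mark GAGGAA, the core bound by the myeloid factor PU.1, TGTGGT, the RUNX core, or AGATAA, the GATA core, on either strand, and none of these motifs overlapped another in the 4 windows. The Itgam window is chr7:128062390-128062689 on the plus strand, Itga2b is chr11:102469834-102470133 on the minus strand, Itga10 is chr3:96645334-96645633 on the plus strand and Itgav is chr2:83724147-83724446 on the plus strand.
Itgam: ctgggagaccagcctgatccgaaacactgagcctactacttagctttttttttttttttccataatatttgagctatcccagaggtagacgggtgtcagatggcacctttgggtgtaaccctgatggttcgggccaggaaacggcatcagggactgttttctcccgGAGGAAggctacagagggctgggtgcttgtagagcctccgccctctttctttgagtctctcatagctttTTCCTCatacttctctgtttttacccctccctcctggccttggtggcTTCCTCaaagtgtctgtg
Itga2b: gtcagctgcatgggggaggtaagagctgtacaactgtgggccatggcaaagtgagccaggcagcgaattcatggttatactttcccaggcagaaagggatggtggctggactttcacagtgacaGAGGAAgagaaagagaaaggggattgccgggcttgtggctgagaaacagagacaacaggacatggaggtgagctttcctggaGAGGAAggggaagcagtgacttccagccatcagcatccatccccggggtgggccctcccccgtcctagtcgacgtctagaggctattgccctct
Itga10: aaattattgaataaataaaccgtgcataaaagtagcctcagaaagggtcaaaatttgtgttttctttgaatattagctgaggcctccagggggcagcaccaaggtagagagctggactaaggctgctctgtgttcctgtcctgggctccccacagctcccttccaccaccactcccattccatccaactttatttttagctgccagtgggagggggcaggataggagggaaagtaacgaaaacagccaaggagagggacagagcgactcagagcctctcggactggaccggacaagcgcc
Itgav: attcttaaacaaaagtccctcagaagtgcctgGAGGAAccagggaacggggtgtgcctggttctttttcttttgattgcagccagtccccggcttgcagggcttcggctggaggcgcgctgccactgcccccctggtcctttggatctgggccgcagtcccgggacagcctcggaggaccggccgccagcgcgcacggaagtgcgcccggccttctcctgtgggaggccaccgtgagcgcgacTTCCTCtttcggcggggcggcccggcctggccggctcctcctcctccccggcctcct

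The Itgam window held 3 matches to GAGGAA or its reverse, Itga2b and Itgav held 2 each and Itga10 held 0. TGTGGT and AGATAA, or their reverse, gave 0 matches in these windows. Among all 32851 windows of the table, 28.3% held GAGGAA, 16.8% held TGTGGT and 11.2% held AGATAA on either strand. GAGGAA was found in 3 of the 5 blood-cell integrin windows and in 3 of the 7 skeletal integrin windows. TGTGGT was found in 2 of the 5 and 0 of the 7, and AGATAA in 1 of the 5 and 0 of the 7. Between these sets, GAGGAA thus stood in windows of both and the other motifs in blood-cell windows only. TGTGGT also stood in 1 of the 5 windows of muscle and epithelial integrins. These few windows carry no test, and a match describes the window only.

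Blood-cell integrins, a list of 9 genes, held the most abundant members, Itgb2 and Itgam. Itgb2, the beta2 chain shared by the leukocyte integrins (ENSMUSG00000000290, chromosome 10, 77530252 to 77565708, plus strand, GRCm38), stood at 377, 472 and 223 FPKM across OE 1 to 3, 510.1 and 469 for Ctrl 2 and 3, and 515 for the library labelled Ctrl 1. OE 3 was the lowest library and OE 2 lay just above Ctrl 3, so the groups overlapped. Its rank among all rows ran from 183 to 305. Itgam, the alpha chain of the complement receptor of neutrophils and macrophages (chromosome 7, 128062640 to 128118491, plus strand), stood at 257, 264 and 116 FPKM in turn for OE 1 to 3, while Ctrl 2 and 3 gave 275 and 307 and the library labelled Ctrl 1 gave 239.7. OE 3 was again the lowest, and OE 1 and OE 2 lay among the Ctrl values. Itgal, the alpha chain of the lymphocyte and neutrophil receptor for ICAM proteins, stood at 62.3, 72.3 and 41.4 FPKM in OE 1 to 3 against 65.3 and 76.8 in Ctrl 2 and 3, with 74.1 in the library labelled Ctrl 1. All 3 of these genes were thus lowest in OE 3, the library with the lowest sum of neutrophil markers, and the part of neutrophil RNA in their level was not tested.

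The difference between the groups was within the replicate spread for these genes. In limma, a linear model fitted over all 12177 genes that passed the filter, the OE minus Ctrl difference on the log2(FPKM + 1) scale was -0.54 (SE 0.29) for Itgb2, -0.45 (SE 0.34) for Itgam and -0.33 (SE 0.22) for Itgal, with adjusted p-values of 0.561, 0.628 and 0.604. Without OE 3 these differences were -0.24, -0.07 and -0.10. Itgb7, which pairs with Itga4 or Itgae on lymphocytes and mast cells, stood at 26.8, 34.8 and 31.8 FPKM across OE 1 to 3, 47.0 and 42.2 for Ctrl 2 and 3, and 35.9 for the library labelled Ctrl 1. All OE values of Itgb7 lay below all Ctrl values, as in 8.97% of all genes tested, with a difference of -0.41 (SE 0.17) and a limma adjusted p = 0.554.

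The abundant chains of the beta2 family kept similar proportions in all 6 libraries, and the low ones did not. Itgam made up 68.5% to 79.7% of the summed FPKM of the 4 alpha chains that pair with beta2 (Itgal, Itgam, Itgax and Itgad), and Itgal 18.9% to 24.5%. Itgax made up 0.522% to 1.81% and Itgad 0.216% to 5.22%, both highest in OE 3. The sum of those 4 chains was 0.615 to 0.853 times the level of Itgb2. Itgb2l, a gene similar to Itgb2 that lies outside the list of members, stood at 151, 192 and 89.6 FPKM in turn for OE 1 to 3, while Ctrl 2 and 3 gave 219 and 193 and the library labelled Ctrl 1 gave 206. Its ratio to Itgb2 was 0.399 to 0.430, so both genes had nearly the same profile over the libraries. How reads shared between these similar genes were assigned is not stated in these sources, so the ratio is uncertain.

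Itga2b, the platelet and megakaryocyte alpha chain (chromosome 11, 102453297 to 102470122, minus strand), followed another order. It stood at 24.2, 39.4 and 119 FPKM in OE 1 to 3 against 116 and 98.3 in Ctrl 2 and 3, with 49.9 in the library labelled Ctrl 1. OE 3 was the highest library, and OE 1 and OE 2 were the lowest. The sum of 5 megakaryocyte markers had the same order, at 365, 649.6 and 2021 FPKM across OE 1 to 3, 1386 and 1121 for Ctrl 2 and 3, and 624 for the library labelled Ctrl 1, except that the library labelled Ctrl 1 lay below OE 2. The share of megakaryocyte RNA in the result was not tested. The difference was -0.76 (SE 0.59, limma adjusted p = 0.646) with all 6 libraries. It was -1.75 (SE 0.26, limma adjusted p = 0.00624) without the library labelled Ctrl 1 and OE 3, where 2 OE libraries were set against 2 Ctrl libraries. OE 3 was the highest OE library and the library labelled Ctrl 1 the lowest Ctrl library for this gene. Leaving them out therefore widened the difference by itself, and that p-value describes the subset only. Itga4, the alpha chain of the VCAM1 receptor of immature blood cells, stood at 17.2, 12.01 and 25.9 FPKM in turn for OE 1 to 3, while Ctrl 2 and 3 gave 14.2 and 24.999 and the library labelled Ctrl 1 gave 8.12. OE and Ctrl values of Itga4 were interleaved, with OE 3 and Ctrl 3 at the top.

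The remaining blood-cell chains were low. Itgad, a beta2 partner of macrophages, ran from 0.696 to 8.82 FPKM with its highest value in OE 3. Itgax, the dendritic cell and macrophage chain, ran from 1.80 to 3.05 FPKM and was also highest in OE 3. Itgae, the chain that lets T cells bind E-cadherin, stayed between 0.0800 and 0.211 FPKM and was not tested. In all, 5 of the 9 blood-cell integrins were highest in OE 3 and 3 were lowest there, and the share of all genes with either order was not computed. Exons of Itgam overlap those of an unnamed gene model on the same strand and exons of Itgad overlap 4 other gene models, so their values may hold reads of those models.

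**Figure D1:**
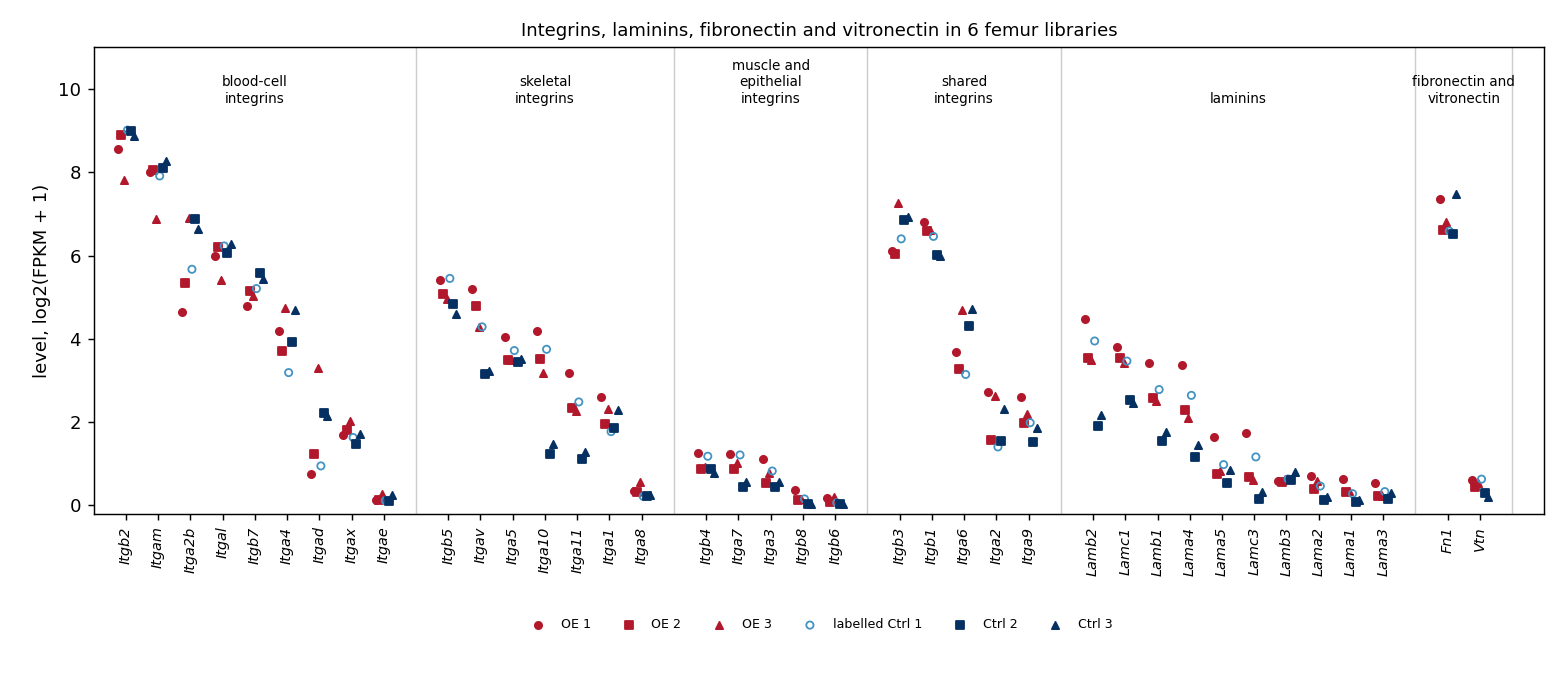
Level of 38 of the 39 genes in each library as log2(FPKM + 1), grouped by role and ordered by mean level within a group. Red symbols are OE 1, 2 and 3, the open circle is the library labelled Ctrl 1, and dark blue symbols are Ctrl 2 and Ctrl 3. Itgb2 and Itgam stand at the top, with the OE 3 triangle below the other libraries at 223 and 116 FPKM, while Itga10, Itga11, Itgav and most laminins are lowest in Ctrl 2 and Ctrl 3.

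Among the skeletal integrins, a list of 7 genes, Itga10, Itga11 and Itgav were lowest in Ctrl 2 and Ctrl 3. Itga10, the collagen receptor chain of cartilage cells (chromosome 3, 96645584 to 96664519, plus strand), stood at 17.2, 10.5 and 8.11 FPKM in OE 1 to 3 against 1.36 and 1.78 in Ctrl 2 and 3, with 12.4 in the library labelled Ctrl 1. Itga11, the collagen receptor chain of fibroblasts and osteoblast precursors and a receptor for osteolectin (chromosome 9, 62677826 to 62783982, plus strand), stood at 8.02, 4.07 and 3.81 FPKM across OE 1 to 3, 1.18 and 1.45 for Ctrl 2 and 3, and 4.60 for the library labelled Ctrl 1. Itgav, the alpha chain of the vitronectin receptors of osteoblasts and osteoclasts (chromosome 2, 83724397 to 83806916, plus strand), stood at 35.6, 26.7 and 18.5 FPKM in turn for OE 1 to 3, while Ctrl 2 and 3 gave 7.94 and 8.44 and the library labelled Ctrl 1 gave 18.5. In each of these 3 genes Ctrl 2 and Ctrl 3 lay below the other 4 libraries, and the library labelled Ctrl 1 lay within the OE range.

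With all 6 libraries, 0 of the 25 tested members passed an adjusted p of 0.05 in limma, where 0% of all 12177 genes did. At an unadjusted p under 0.05, limma gave 3 members higher in OE (Itgav, Itgb1 and Lamc1), where 4.12% of all genes were, and 1 lower (Itgb7), where 4.08% were. The difference was 1.19 (SE 0.36) for Itgav, 1.48 (SE 0.66) for Itga10 and 0.96 (SE 0.42) for Itga11, each with a limma adjusted p = 0.554. Without the library labelled Ctrl 1, limma called 4 members higher, where 4.25% of all genes were, and 0 lower, where 0.649% were. Itga10 was then higher in OE by 2.27 (SE 0.30, limma adjusted p = 0.0126) and Itgav by 1.56 (SE 0.27, limma adjusted p = 0.0308), and the other 2 were the laminin genes Lamb2 and Lamc1. Itga11 was at 1.38 (SE 0.30) with a limma adjusted p = 0.0581. The calls on these genes therefore turned on whether the library labelled Ctrl 1 counted as a control. That library held the highest Ctrl value of all 4 called members. Leaving it out widened each difference by itself, and these calls describe the subset only.

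The cartilage and osteoblast marker sums moved with Itga10, Itga11 and Itgav, being lowest in Ctrl 2 and Ctrl 3, and so did 4 osteoclast markers, at 1602 and 2478 FPKM in OE 2 and OE 1, 879 in OE 3, 298 and 249 for Ctrl 2 and 3, and 1988 for the library labelled Ctrl 1. Osteocyte markers, 4 in number, summed to 588, 241 and 172 FPKM across OE 1 to 3, 43.4 and 51.0 for Ctrl 2 and 3, and 397 for the library labelled Ctrl 1. The 4 measured muscle markers were also lowest in Ctrl 2 and Ctrl 3. The part of these cell types in the level of the 3 integrins was not tested. Exons of Itga10 overlap a gene model on the same strand and those of Itgav a model on the opposite strand.

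Itgb5 and Itga5 were more even. Itgb5, which joins Itgav in a vitronectin receptor, stood at 41.8, 32.7 and 29.97 FPKM in OE 1 to 3 against 27.8 and 23.0 in Ctrl 2 and 3, with 42.7 in the library labelled Ctrl 1. Itga5, the alpha chain of the main fibronectin receptor, stood at 15.4, 10.3 and 10.3 FPKM across OE 1 to 3, 9.86 and 10.4 for Ctrl 2 and 3, and 12.2 for the library labelled Ctrl 1. OE and Ctrl values overlapped in both genes, with differences of 0.19 (SE 0.25) for Itgb5 and 0.12 (SE 0.19) for Itga5. Itgb5 was also lowest in Ctrl 2 and Ctrl 3, by a smaller margin than Itga10, Itga11 and Itgav. Without the library labelled Ctrl 1 its difference was 0.43 (SE 0.20, limma adjusted p = 0.362). Itga1, a collagen receptor chain of stromal and vessel cells, ran from 2.42 to 5.07 FPKM with interleaved groups. Itga8, a chain that binds nephronectin, stayed between 0.162 and 0.486 FPKM and was not tested.

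The balance of skeletal and blood-cell integrins differed between libraries more than either group level did. The mean log2(FPKM + 1) of the 9 blood-cell integrins was 4.31, 4.50 and 4.71 across OE 1 to 3, 4.82 and 4.92 for Ctrl 2 and 3, and 4.44 for the library labelled Ctrl 1. That of the 7 skeletal integrins was 3.57, 3.07 and 3.01 across OE 1 to 3, 2.27 and 2.38 for Ctrl 2 and 3, and 3.10 for the library labelled Ctrl 1. The skeletal level minus the blood-cell level was -0.74, -1.43 and -1.70 across OE 1 to 3, -2.54 for both Ctrl 2 and 3, and -1.34 for the library labelled Ctrl 1. That library lay inside the OE range, and Ctrl 2 and Ctrl 3 lay below it. The group values were -1.29 ± 0.49 in OE and -2.14 ± 0.70 in Ctrl (SD, n = 3), a difference of 0.85, which was 1.25 without the library labelled Ctrl 1 and 1.46 without that library and OE 3. As summed FPKM, blood-cell integrins were 6.22 to 10.3 times as abundant as skeletal integrins across OE, 20.3 and 20.8 times for Ctrl 2 and 3, and 9.95 times for the library labelled Ctrl 1. The blood-cell sum was lowest in OE 3, at 569 FPKM against 767 to 1032 in the other libraries. By mean log2 level OE 3 was instead the highest OE library. No p-value was computed for these scores because their members were chosen.

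**Figure D2:**
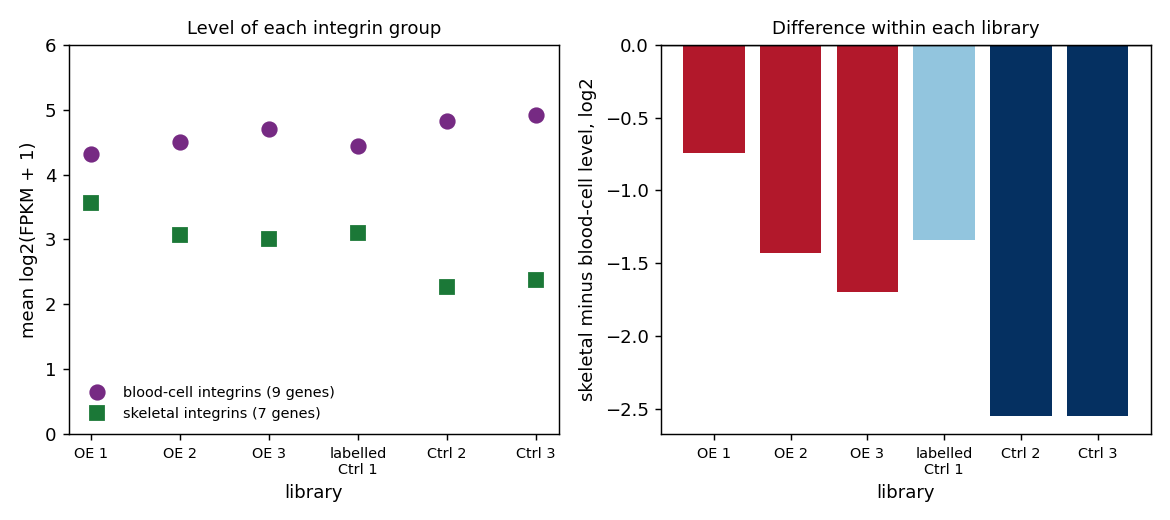
Left, the mean log2(FPKM + 1) of 9 blood-cell integrins (purple circles) and 7 skeletal integrins (green squares) in each library. Right, bars give the skeletal minus the blood-cell level of each library on the log2 scale, with OE in red, the library labelled Ctrl 1 in light blue and Ctrl 2 and Ctrl 3 in dark blue. Bars of Ctrl 2 and Ctrl 3 reach -2.54 and those of the other 4 libraries end between -0.74 and -1.70.

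Integrins used by many cell types split between both patterns. Itgb1, the beta chain of most matrix receptors (chromosome 8, 128685654 to 128733200, plus strand), stood at 111, 95.6 and 96.3 FPKM in turn for OE 1 to 3, while Ctrl 2 and 3 gave 63.3 and 62.9 and the library labelled Ctrl 1 gave 87.0. For Itgb1 the lowest OE library was above the highest Ctrl library, as in 4.59% of all genes tested, and it was the only tested member with this order. The difference was 0.51 (SE 0.18, limma adjusted p = 0.554), and 0.67 (SE 0.18, limma adjusted p = 0.104) without the library labelled Ctrl 1. Itgb3, the beta chain of both the platelet and the osteoclast receptor, stood at 68.1, 64.7 and 153 FPKM in OE 1 to 3 against 115 and 121 in Ctrl 2 and 3, with 83.5 in the library labelled Ctrl 1. Itgb3 was therefore highest in OE 3, as was Itga2b, and not low in Ctrl 2 and Ctrl 3 as Itgav was.

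The partners of Itgb3 were present in changing proportions. The level of Itgav was 0.523, 0.412 and 0.121 times that of Itgb3 across OE 1 to 3, 0.0690 and 0.0696 times for Ctrl 2 and 3, and 0.222 times for the library labelled Ctrl 1. Itga2b was 0.355, 0.609 and 0.780 times Itgb3 across OE 1 to 3, 1.005 and 0.811 times for Ctrl 2 and 3, and 0.598 times for the library labelled Ctrl 1. Since Itgav also pairs with other beta chains, these ratios are of RNA levels and not of receptors.

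Itga6, a laminin receptor chain of platelets, endothelium and progenitors, stood at 11.9, 8.74 and 25.03 FPKM across OE 1 to 3, 18.9 and 25.2 for Ctrl 2 and 3, and 7.84 for the library labelled Ctrl 1. OE 3 and Ctrl 3 were the highest libraries, and the groups overlapped. Itga2, the collagen receptor chain of platelets, ran from 1.65 to 5.60 FPKM with interleaved groups. Itga9, which binds tenascin and osteopontin, ran from 1.90 to 5.10 FPKM and was lowest in Ctrl 2 and Ctrl 3. Without the library labelled Ctrl 1 and OE 3, limma called 11 members. Of these 7 were higher in OE, where 7.92% of all genes were, and 4 were lower, where 3.48% were. The 7 were Itga10, Itga11, Itgav and the laminins Lama4, Lamb1, Lamb2 and Lamc1, and the 4 were Itga2b, Itgad, Itgb3 and Itga6, at -1.75, -1.19, -0.82 and -1.03. In all 11, OE 3 held the lowest OE value of a gene called higher or the highest of a gene called lower. The library labelled Ctrl 1 held the opposite extreme of the Ctrl values. Leaving both out therefore widened each difference by itself, and these calls describe the subset only.

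Integrins of muscle and epithelium were near the limit of testing. Itga7, the laminin receptor chain of muscle fibres, stood between 0.3499 and 1.37 FPKM, and its difference of 0.31 (SE 0.26, limma adjusted p = 0.655) was within the spread. The sum of the 4 measured muscle markers was likewise higher in OE 1 to 3 and the library labelled Ctrl 1 than in Ctrl 2 and 3, and its part in the level of Itga7 was not tested. Itga3 and Itgb4, laminin receptor chains of epithelium, ran from 0.353 to 1.17 and from 0.723 to 1.40 FPKM. Itgb6 and Itgb8, which pair with Itgav to release latent TGF-beta, stayed at or below 0.292 FPKM. All OE values of Itgb6 lay above all Ctrl values at these low levels. This order held in 4 of the 39 members, namely Itgb1 and the untested Itgb6, Itga8 and Lama1. The share of untested genes with this order was not computed.

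Lamb2, Lamc1, Lamb1 and Lama4 were the abundant laminin chains. Lamb2, a beta chain of muscle and vessel basement membranes (chromosome 9, 108479736 to 108490530, plus strand), stood at 21.3, 10.5 and 10.3 FPKM in turn for OE 1 to 3, while Ctrl 2 and 3 gave 2.77 and 3.48 and the library labelled Ctrl 1 gave 14.4. Lamc1, the gamma chain of most laminins (chromosome 1, 153218922 to 153332786, minus strand), stood at 12.9, 10.6 and 9.74 FPKM in OE 1 to 3 against 4.82 and 4.52 in Ctrl 2 and 3, with 10.1 in the library labelled Ctrl 1. OE 1 was the highest library in both and Ctrl 2 and Ctrl 3 the lowest. Lamb1, the other broadly used beta chain, stood at 9.79, 5.01 and 4.73 FPKM across OE 1 to 3, 1.94 and 2.40 for Ctrl 2 and 3, and 5.88 for the library labelled Ctrl 1. Lama4, the alpha chain of vessel laminin, stood at 9.28, 3.91 and 3.30 FPKM in turn for OE 1 to 3, while Ctrl 2 and 3 gave 1.25 and 1.75 and the library labelled Ctrl 1 gave 5.25. In 8 of the 11 laminin genes Ctrl 2 and Ctrl 3 lay below the other 4 libraries, and in 10 of the 11 the highest library was OE 1. The share of all genes with either order was not computed, so these counts only describe the laminins.

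With all 6 libraries the laminin differences were 1.16 (SE 0.56) for Lamb2, 0.83 (SE 0.47) for Lama4, 0.81 (SE 0.39) for Lamb1 and 0.76 (SE 0.28) for Lamc1, with limma adjusted p-values of 0.554 to 0.564. Without the library labelled Ctrl 1, Lamb2 was higher in OE by 1.79 (SE 0.32, limma adjusted p = 0.0332) and Lamc1 by 1.08 (SE 0.17, limma adjusted p = 0.0210). Lamb1 was then at 1.18 (SE 0.30, limma adjusted p = 0.0954) and Lama4 at 1.27 (SE 0.38, limma adjusted p = 0.147), which did not pass. The library left out held the highest Ctrl value of each of these laminins, so its omission widened each difference by itself. The 5 endothelial markers summed to 86.6, 62.2 and 51.7 FPKM across OE 1 to 3, 48.1 and 49.2 for Ctrl 2 and 3, and 69.1 for the library labelled Ctrl 1. Their lowest sums were thus also in Ctrl 2 and Ctrl 3, just below OE 3. The muscle, osteoblast and osteocyte sums separated Ctrl 2 and Ctrl 3 from the other 4 libraries as Lamb2 and Lamc1 did, with muscle at 882, 708 and 1003 FPKM across OE 1 to 3, 114 and 160 for Ctrl 2 and 3, and 737 for the library labelled Ctrl 1. The part of these cell types in the laminin values was not tested.

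The makeup of the laminin RNA also differed between libraries. The ratio of Lamb2 to Lamb1 was 2.17, 2.10 and 2.18 across OE 1 to 3, 1.43 and 1.45 for Ctrl 2 and 3, and 2.46 for the library labelled Ctrl 1. Lama4 was 66.0% to 73.2% of the summed FPKM of the 5 alpha chains across OE, 63.4% and 57.7% for Ctrl 2 and 3, and 74.2% for the library labelled Ctrl 1. Lama5, the alpha chain of mature vessels and epithelium, ran from 0.463 to 2.15 FPKM and Lamc3 from 0.107 to 2.32. Lama1, Lama2, Lama3 and Lamb3 stayed under 1 FPKM in every library, between 0.0539 and 0.731. Lamb3, a chain of epithelial laminin, differed from the other laminins in that its highest value was in Ctrl 3, at 0.731 FPKM, with 0.483 to 0.555 in the other 5 libraries.

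Fn1, fibronectin, was abundant and did not separate the groups (chromosome 1, 71585520 to 71653200, minus strand). It stood at 163, 96.6 and 111 FPKM in OE 1 to 3 against 90.6 and 176 in Ctrl 2 and 3, with 95.1 in the library labelled Ctrl 1. Ctrl 3 was the highest library and Ctrl 2 the lowest, so the spread within Ctrl covered the whole OE range. The group values were 123 ± 35.0 FPKM over the OE libraries and 121 ± 48.1 over the Ctrl libraries (mean ± SD, n = 3), and the difference was 0.07 (SE 0.32, limma adjusted p = 0.954). Vtn, vitronectin, which is made mainly by liver, ran from 0.148 to 0.549 FPKM.

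**Figure D3:**
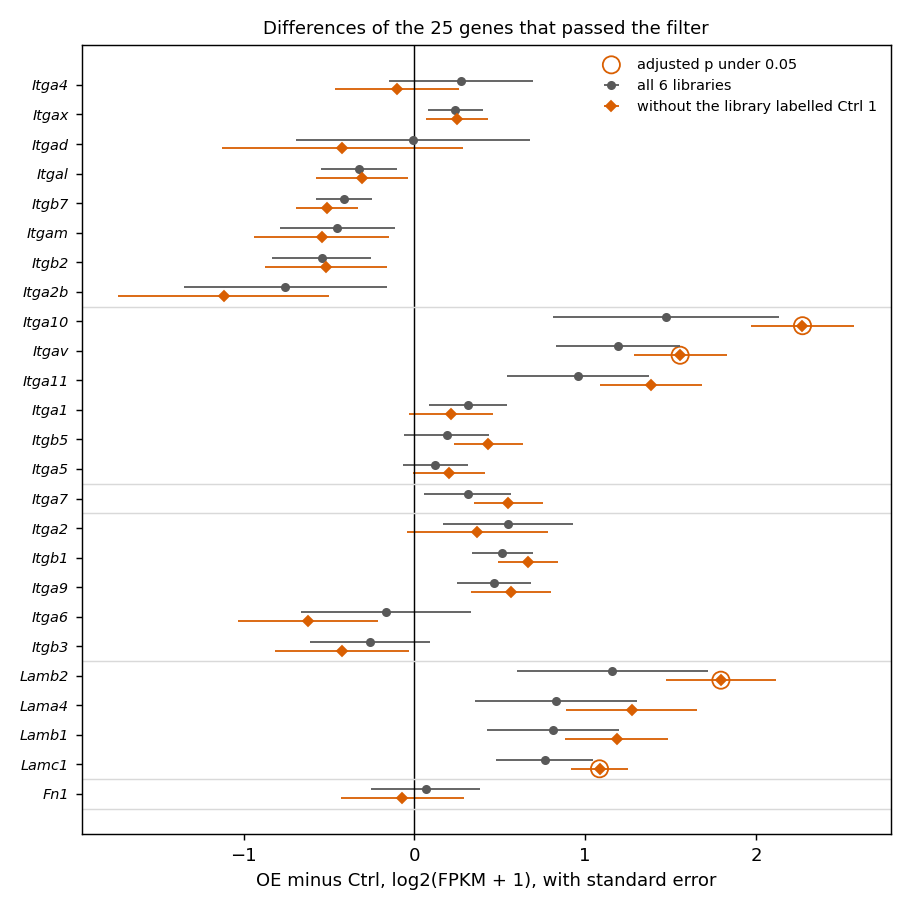
OE minus Ctrl difference on the log2(FPKM + 1) scale with its standard error for the 25 genes that passed the filter, from all 6 libraries (grey circles) and without the library labelled Ctrl 1 (orange diamonds), with lines between role groups. Rings mark an adjusted p under 0.05: these are Itga10 at 2.27, Itgav at 1.56, Lamb2 at 1.79 and Lamc1 at 1.08, and no grey circle has one.

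Over the role groups, the median difference with all 6 libraries was -0.37 for the 8 tested blood-cell integrins, 0.64 for 6 skeletal integrins, 0.47 for 5 shared integrins and 0.82 for 4 laminins, beside -0.04 for all 12177 genes. Of the 25 tested members 17 had a positive difference, and of all genes 43.7% did. Both medians and counts describe genes that passed the filter and carry no test of the list. In 28 of the 39 members the lowest OE value was not above that of the library labelled Ctrl 1, and the share of all genes with this order was not computed.

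The intracellular machinery of integrins held genes of both signs. Of 27 genes listed, 26 were tested, 11 with a positive and 15 with a negative difference, a median of -0.10, and 0 called with all 6 libraries. All OE values lay below all Ctrl values in 6 of the 26 and above them in 0, where 8.97% and 4.59% of all genes did. Fermt3, kindlin-3 of blood cells and platelets, stood at 112, 147 and 145 FPKM across OE 1 to 3, 228 and 205 for Ctrl 2 and 3, and 173 for the library labelled Ctrl 1. Apbb1ip, which links Rap1 to talin in leukocytes, stood at 46.9, 52.7 and 35.8 FPKM in turn for OE 1 to 3, while Ctrl 2 and 3 gave 84.2 and 80.3 and the library labelled Ctrl 1 gave 59.8. Both had all OE values below all Ctrl values. Ptk2b, the focal adhesion kinase relative Pyk2 of blood cells and osteoclasts, stood at 36.7 ± 4.43 FPKM over the OE libraries and 55.5 ± 2.59 over the Ctrl libraries (mean ± SD, n = 3), and Zyx, zyxin, at 215 ± 23.0 FPKM over the OE libraries and 309 ± 24.9 over the Ctrl libraries (mean ± SD, n = 3). The differences of Ptk2b, Apbb1ip, Zyx and Fermt3 were -0.59, -0.72, -0.53 and -0.58, each with a limma adjusted p = 0.554.

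Fermt2, Parva and Ptk2, relatives of Fermt3, Parvg and Ptk2b with wider expression, had positive differences and were picked after their values were seen. Other genes of the list did not share this sign, with differences of -0.42 for Pxn, -0.31 for Parvb, -0.27 for Ilk and -0.19 for Tln1. Fermt2, kindlin-2 of mesenchymal and endothelial cells, stood at 15.6, 11.17 and 10.1 FPKM in OE 1 to 3 against 3.39 and 3.46 in Ctrl 2 and 3, with 10.5 in the library labelled Ctrl 1. Without the library labelled Ctrl 1, limma called 2 of the 26 machinery genes higher, where 4.25% of all genes were, namely Fermt2 at 1.56 (SE 0.205, adjusted p = 0.0125) and Ptk2, focal adhesion kinase, at 0.91 (SE 0.19, adjusted p = 0.0493). For both genes that library held the highest Ctrl value, so leaving it out widened the difference by itself. The ratio of Fermt3 to Fermt2 was 7.21, 13.1 and 14.4 across OE 1 to 3, 67.2 and 59.4 for Ctrl 2 and 3, and 16.5 for the library labelled Ctrl 1. The ratio of Parvg, the parvin of blood cells, to Parva, that of most other cells, was 7.70, 18.9 and 12.7 across OE 1 to 3, 74.3 and 43.4 for Ctrl 2 and 3, and 20.9 for the library labelled Ctrl 1. The ratio of Itgb2 to Itgb1 was 3.40, 4.94 and 2.32 across OE 1 to 3, 8.06 and 7.46 for Ctrl 2 and 3, and 5.92 for the library labelled Ctrl 1. In all 3 ratios every OE library lay below every Ctrl library, with the library labelled Ctrl 1 next to OE. Fermt3 and Parvg by themselves had all OE values below all Ctrl values, and Itgb1 had them above. With Fermt2 and Parva picked for their positive differences, the order of these ratios followed largely from the choice of genes and is not a separate result.

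**Figure D4:**
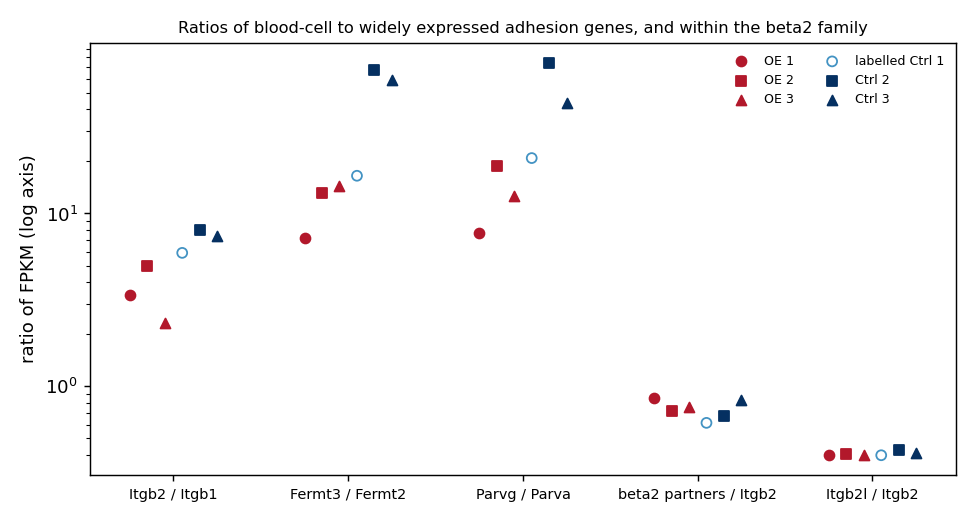
Ratios of FPKM within each library on a log axis, for Itgb2 over Itgb1, Fermt3 over Fermt2, Parvg over Parva, the 4 beta2 partner chains over Itgb2, and Itgb2l over Itgb2, with the symbols of the plot of all members. The Fermt3 to Fermt2 ratio runs from 7.21 to 67.2, while the Itgb2l to Itgb2 ratio stays between 0.399 and 0.430.

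Partners of laminin in the basement membrane had the same sign of difference as the tested laminins. All 10 were tested and had a positive difference, where 43.7% of all genes did, with a median of 0.74, and 0 were called with all 6 libraries. Sparc, osteonectin, a collagen-binding protein made in bulk by osteoblasts, stood at 5019, 3591 and 2463 FPKM across OE 1 to 3, 211 for both Ctrl 2 and 3, and 3723 for the library labelled Ctrl 1. Sparc was the only one of the 10 called without the library labelled Ctrl 1, where 4.25% of all genes were called higher, at 4.06 (SE 0.37, limma adjusted p = 0.00462). That library held the highest Ctrl value of Sparc, so leaving it out widened the difference by itself. Hspg2, perlecan, stood at 30.7, 10.4 and 10.4 FPKM across OE 1 to 3, 2.27 and 5.17 for Ctrl 2 and 3, and 12.6 for the library labelled Ctrl 1. Nid1, nidogen, which joins laminin to collagen IV, stood at 8.51 ± 2.26 FPKM over the OE libraries and 5.59 ± 1.29 over the Ctrl libraries (mean ± SD, n = 3). Agrn, agrin, stood at 6.62 ± 2.07 FPKM over the OE libraries and 3.85 ± 1.09 over the Ctrl libraries (mean ± SD, n = 3). OE and Ctrl values overlapped in both genes, and neither was called (limma adjusted p = 0.554).

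Other ligands of integrins also held genes of both signs. Of 17 genes 16 were tested, 10 with a positive difference, with a median of 0.73 and 0 called with all 6 libraries. Npnt, nephronectin, a ligand of Itga8, stood at 5.59, 3.57 and 2.80 FPKM in turn for OE 1 to 3, while Ctrl 2 and 3 gave 0.294 and 0.272 and the library labelled Ctrl 1 gave 2.91. Ibsp, bone sialoprotein, stood at 563, 336 and 336 FPKM in OE 1 to 3 against 77.8 and 80.9 in Ctrl 2 and 3, with 334 in the library labelled Ctrl 1, so that the library labelled Ctrl 1 lay just below the OE range. Postn, periostin, stood at 74.4, 39.3 and 37.7 FPKM across OE 1 to 3, 8.93 and 9.69 for Ctrl 2 and 3, and 45.0 for the library labelled Ctrl 1. Tnc, tenascin-C, a ligand of Itga9, stood at 153, 63.9 and 66.1 FPKM across OE 1 to 3, 19.0 and 24.8 for Ctrl 2 and 3, and 73.3 for the library labelled Ctrl 1. In both genes Ctrl 2 and Ctrl 3 lay below the other 4 libraries. Without the library labelled Ctrl 1, limma called 8 of the 16 higher in OE, where 4.25% of all genes were, and 0 lower, where 0.649% were. The 8 were Ibsp, Postn, Npnt, Spp1, Clec11a, Jam2, Jam3 and Mfge8. Of these Clec11a, the osteolectin bound by Itga11, stood at 35.8, 27.1 and 17.3 FPKM across OE 1 to 3, 6.39 and 5.68 for Ctrl 2 and 3, and 27.4 for the library labelled Ctrl 1. That library held the highest Ctrl value of all 8, so leaving it out widened each difference by itself. These calls describe the subset only. Npnt reached 1 FPKM only in OE 1 to 3 and the library labelled Ctrl 1, so it passed the filter through the libraries where it was high. Icam1 and Icam2, ligands of the beta2 integrins, were even, at 6.52 to 7.997 and 14.0 to 20.8 FPKM over the 6 libraries. Vcam1, the ligand of Itga4, was highest in OE 3 at 126 FPKM and stood between 31.8 and 88.3 elsewhere.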

How the data were processed

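RNA of 6 mouse femur libraries was measured, 3 OE and 3 Ctrl, with groups and replicate numbers from the titles. The deposited values are FPKM, as named in the file headers; counts are absent from these files, so absolute depth is unknown. The submitters' processing notes name TopHat2, Cufflinks, DESeq and mm10; roles, versions and settings, and how strand and shared reads were handled, are not given in the sources used. Symbols and coordinates came from GENCODE M21 (GRCm38), which matched 21172 of 21606 Ensembl identifiers. Exons of 13 of the 39 members overlap another annotated gene, 9 of them on the opposite strand only.

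No count model can be used on FPKM. Values were therefore log-transformed as log2(FPKM + 1), and 12177 genes reaching 1 FPKM in 3 or more libraries entered limma (version 3.58.1, under R 4.3.3), using lmFit and a trended eBayes prior, with Benjamini-Hochberg adjustment over all of them and a threshold of 0.05. This scale understates changes of low genes. The fit was tested on simulated data. Members, role groups and lists were chosen with earlier results of these data known, and AGATAA, Fermt2, Parva, Parvg, Ptk2, Clec11a, Spp1, Jam2, Jam3, Mfge8, Icam1, Icam2, Vcam1, Pxn, Parvb, Ilk and Tln1 were named after their values were seen. By rule, members averaging at least 5 FPKM in a group are given per library, and each other list gives its 4 genes with the smallest p. Alternatives were a pseudocount of 0.1, no filter, a filter of 5 FPKM, no trend, trimmed-mean scaling, a replicate block, array weights, leaving out each library, leaving out the library labelled Ctrl 1 with OE 3, and smaller integrin groups. Of the 39 members, 1 that was below the filter enters the counts and is not reported here by name or value.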

Additional observations from a re-analysis of the deposited data

How the results depend on the processing

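With all 6 libraries at equal weight, 0 members, 0 genes of the 3 other lists and 0 of all genes were called by limma under every change of pseudocount, filter, trend or scaling. Leaving out 1 library gave 0 to 4 members, 0 to 11 genes of the other lists and 0 to 597 of all genes, and only the omission of the library labelled Ctrl 1 gave any call. Leaving out the library labelled Ctrl 1 and OE 3 together gave 11, 23 and 1388, and array weights gave 9, 24 and 1394, with a weight of 5.83 for Ctrl 2 and 0.413 for the library labelled Ctrl 1; the cause was not tested. The skeletal minus blood-cell difference of 0.85 ran from 0.58 to 1.25 when 1 library was left out, was 1.46 without the library labelled Ctrl 1 and OE 3, and was 0.80 to 1.03 with the other pseudocount, scaling or group members. The replicate number as a block gave 0 called members but smaller standard errors for many genes, as for Itgav (SE 0.19 against 0.36, limma adjusted p = 0.191 with the block). Deviations of same-numbered libraries correlated at 0.44, 0.09 and 0.31, and those of differently numbered libraries at -0.62 to 0.42. The labels used do not state a pairing, and these values do not settle whether same-numbered libraries were paired. Among the 25 tested members, signs changed for 5 with small differences: Itgad was at 0.0239 with trimmed-mean scaling and ran from -0.77 to 0.49 when 1 library was left out, Itga4 ran from -0.10 to 0.66, Itga5 from -0.0584 to 0.21, Itga6 from -0.62 to 0.16 and Fn1 from -0.15 to 0.37, and without the library labelled Ctrl 1 and OE 3 Itga4 was at -0.37 and Fn1 at -0.0101. Members under 1 FPKM could not be compared beyond their values, since absolute depth is unknown.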
